A study of Mus musculus with 71 samples.

Results

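Eosinophils are granulocytes of type 2 immunity that mature in the bone marrow under interleukin-5 and circulate in blood before they enter tissues along eotaxin gradients. Their transcripts for the eotaxin receptor, the interleukin-5 receptor, the sialic acid-binding lectin Siglec-F and the granule proteins are used to follow the lineage. The 6 genes described here were taken by symbol: Ccr3, the eotaxin receptor, Il5ra, the ligand-binding chain of the interleukin-5 receptor, Siglecf, a surface lectin, Prg2, the granule major basic protein, Epx, the granule peroxidase, and Alox15, a lipoxygenase that oxidizes arachidonic acid. All 6 are among the 55416 genes of the count table, and 5 of them, all but Epx, are among the 10508 genes of the table of normalized values. The genes were chosen with earlier results of these data known, in which Ccr3 stood out in D11 and E07 mice against HOCl and control mice. Values of these groups against each other are therefore given as a description, with no test.

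Whole blood was taken at the end of the study (day 42) from female Balb/c AnNRj mice that entered it at 6 weeks of age. HOCl mice received hypochlorous acid in the skin on 5 days per week for 6 weeks, a model of systemic sclerosis, whereas control mice (n = 11) received PBS. HOCl mice without antibody numbered 12, of which 11 have normalized values. D11 and E07 mice (n = 12 each) had HOCl injections and subcutaneous mAbs against galectin-3 (20 mg/kg, every 5 days), whose Fc part carries mutations that weaken binding to Fc receptors. D06 and BPR21 mice (n = 12 each) are labelled as HOCl mice with an agent of that name, and its dose and schedule are not given in the sources used here. The series is described as a study of 3 mAbs against galectin-3. The genotype label reads HOCL for control mice too, so groups were taken from the titles. Groups were kept in separate cages, so cage and group cannot be told apart. In whole blood, fewer cells of a type and less RNA per cell cannot be told apart either.

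Between 11932855 and 15948972 reads per mouse fell on genes, with group medians from 13558719 to 14058520.5. The normalized values (vst, a variance-stabilizing transform of counts divided by size factors) are close to log2 for genes with many counts and compressed for genes with few, so that vst differences of Prg2, Siglecf and Il5ra are smaller than log2 fold changes of their counts. A gene with 0 counts has the lowest value of the table, 6.06. Size factors were 1.29 ± 0.261 (SD, n = 11) in control, 0.938 ± 0.229 (n = 12) in HOCl, 0.868 ± 0.198 (n = 12) in D06 and 0.980 ± 0.231 (n = 12) in BPR21 mice, and 19 genes of red cell precursors took 6.94%, 11.4%, 9.67% and 8.67% of the counts in these groups. BPR21 mice 7 and 11 stood apart from their group: 14 neutrophil markers summed to 21200 and 14700 CPM (counts scaled to the mouse's total count) in them against 2170 to 5390 CPM in the other 10 BPR21 mice, and 8 basophil markers to 279 and 429 CPM against 54 to 111 CPM. Among the 8, Hdc reached 5793 counts in a BPR21 mouse and no other marker more than 237, so a high sum can rest on Hdc alone. Limma differences of BPR21 mice are given with and without both. Levels, marker sums, correlations between genes, and edgeR and DESeq2 results include both.

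All 71 mice had reads of Ccr3, Siglecf and Alox15, 70 had reads of Il5ra, 56 of Prg2 and 8 of Epx. Per 1000 bases of annotated exon, the level in control mice was 10.5 ± 4.39 CPM (SD, n = 11) for Alox15 and 9.79 ± 3.34 CPM for Ccr3. On the same per-length scale it was 2.53 ± 1.03 CPM for Siglecf, 1.87 ± 0.671 CPM for Il5ra, 0.553 ± 0.610 CPM for Prg2 and 0.00747 ± 0.0248 CPM for Epx. The surface and lipid-enzyme transcripts were thus well covered in blood, whereas both granule transcripts were close to the lowest level that could be counted.

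**Figure D1:**
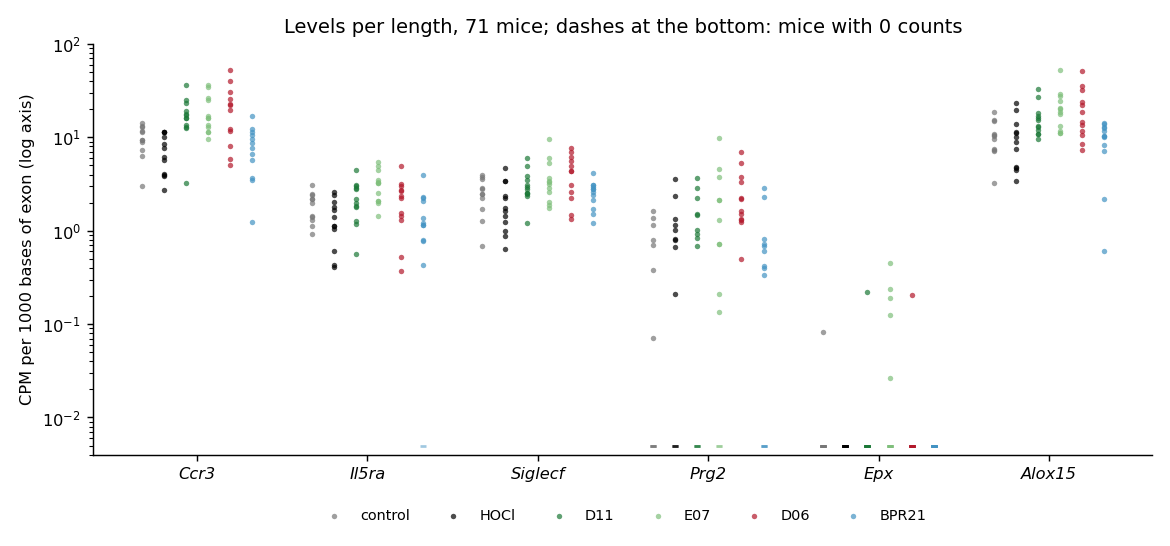
Level of each gene in each of 71 mice as CPM per 1000 bases of annotated exon, on a log axis, by group (colours); dashes at the bottom mark mice with 0 counts. Ccr3 and Alox15 had the highest group means of the 6 genes in every group, and Epx had reads in only 8 mice.

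Ccr3, Il5ra and Siglecf varied together from mouse to mouse (values below), so the 250 bases before their start sites are shown, read from RefSeq promoter sequences made on GRCm38.p6 and placed by exact match on GRCm39. Capitals mark the GATA motif (AGATAA with T also allowed as its first letter and G as its last, on either strand, where matches may overlap), bound by factors such as GATA1, which the eosinophil lineage needs. The C/EBP motif TTGCNNAA, also searched on both strands, was in none of the 3.
Ccr3: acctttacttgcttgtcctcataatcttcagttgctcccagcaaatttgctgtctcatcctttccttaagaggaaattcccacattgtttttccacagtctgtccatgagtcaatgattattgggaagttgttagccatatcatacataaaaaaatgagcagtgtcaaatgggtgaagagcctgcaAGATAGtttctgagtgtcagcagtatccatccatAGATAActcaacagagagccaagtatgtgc
Il5ra: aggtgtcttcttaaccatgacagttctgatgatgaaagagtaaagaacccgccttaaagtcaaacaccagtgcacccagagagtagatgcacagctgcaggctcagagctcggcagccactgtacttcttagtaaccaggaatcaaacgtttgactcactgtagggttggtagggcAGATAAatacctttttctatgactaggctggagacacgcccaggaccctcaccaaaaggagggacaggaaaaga
Siglecf: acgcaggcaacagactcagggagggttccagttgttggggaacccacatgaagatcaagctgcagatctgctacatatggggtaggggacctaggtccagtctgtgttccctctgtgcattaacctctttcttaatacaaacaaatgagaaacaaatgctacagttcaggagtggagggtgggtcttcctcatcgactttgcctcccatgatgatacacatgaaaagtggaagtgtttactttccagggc
Ccr3 (ENSMUSG00000035448) lies on GRCm39 chromosome 9 at 123822009 to 123831726 on the plus strand, and the run before it, chr9:123821758-123822007, held AGATAG at -64 to -59 and AGATAA at -30 to -25 from the start. Il5ra (ENSMUSG00000005364) lies on chromosome 6 at 106686622 to 106725998 on the minus strand, and its run, chr6:106725999-106726248, held AGATAA at -74 to -69. Siglecf (ENSMUSG00000039013) lies on chromosome 7 at 43000765 to 43008955 on the plus strand, and its run, chr7:43000515-43000764, held no GATA match. Of 32851 promoters cut to the same length, 26.5% held the GATA motif and 9.56% the C/EBP motif. These matches describe letters, not bound sites. The table matched 4 of the 6 genes. Epx (ENSMUSG00000052234, chromosome 11, 87754826 to 87766362, minus strand) held neither motif, and Prg2 (ENSMUSG00000027073, chromosome 2, 84789208 to 84813977, plus strand) and Alox15 (ENSMUSG00000018924, chromosome 11, 70234970 to 70242858, minus strand) were not matched. No gene of the annotation overlaps any of the 6.

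Ccr3, the receptor through which eotaxins draw eosinophils, had the widest range between group means on the vst scale. Its vst value ran from 8.26 (median 8.91) to 9.29 in control mice and from 8.41 (median 8.98) to 9.48 in HOCl mice. In D06 mice it ran from 8.74 (median 10.20) to 11.15, and 8 of the 12 lay above every HOCl mouse. D06 mice 8 and 7 were highest (11.15 and 11.02), while mice 11 and 4 (8.74 and 9.10) lay inside the range of the control mice. In D11 mice Ccr3 ran from 8.45 (median 9.89) to 10.46 and in E07 mice from 8.89 (median 9.40) to 10.41. BPR21 mice spanned 7.53 (median 8.90) to 9.55, with mouse 11 lowest. By group mean the order was D06 (10.05 ± 0.78), D11 (9.78 ± 0.52), E07 (9.56 ± 0.51), HOCl (8.89 ± 0.38), BPR21 (8.85 ± 0.57) and control (8.83 ± 0.29, SD, n = 11 or 12). Of neighbours in this order, only E07 and HOCl differed by more than the larger SD.

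Il5ra, which binds the main survival factor of eosinophils, moved less. It ran from 7.12 (median 7.62) to 8.03 in control, 7.01 (7.52) to 8.12 in HOCl, 7.30 (7.98) to 8.35 in D11 and 7.60 (8.00) to 8.42 in E07 mice. In D06 mice it ran from 6.94 (8.11) to 8.58, and in BPR21 mice from 6.06 (7.56) to 8.26, where mouse 11 had 0 counts. The group means ran from 8.00 ± 0.28 in E07 to 7.48 ± 0.55 in BPR21 mice, and no neighbours in their order differed by more than the larger SD.

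Siglecf, a lectin whose ligation can trigger eosinophil death, ran from 7.09 (median 7.53) to 7.94 in control and from 7.24 (7.55) to 8.16 in HOCl mice. It ran from 7.31 (8.32) to 8.73 in D06 mice, 10 of which lay above every control mouse, and mice 12 and 11 were low (7.31 and 7.44). In D11, E07 and BPR21 mice the medians were 7.79, 7.67 and 7.77. BPR21 mice had the smallest spread of Siglecf (7.73 ± 0.18, n = 12), and in mouse 11, lowest for Ccr3 and Il5ra, Siglecf was 7.81.

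Prg2, the toxic cationic protein of the granule core, was near the floor. Its median count was 6 in control, 12.5 in HOCl, 14 in D11, 15.5 in E07, 28 in D06 and 7.5 in BPR21 mice. All 12 D06 mice had Prg2 reads (7 to 101 counts), and 4 control, 3 HOCl, 3 D11, 2 E07 and 3 BPR21 mice had none. On the vst scale D06 mice ran from 6.57 (median 7.14) to 7.80 and control mice from 6.06 (6.42) to 6.77, so 11 of 12 D06 mice lay above every control mouse.

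Alox15, whose products include eosinophil lipid mediators, followed Ccr3. It ran from 8.07 (median 8.57) to 9.14 in control, 8.02 (8.75) to 9.78 in HOCl, 8.79 (9.43) to 9.97 in D11, 8.57 (9.25) to 10.51 in E07 and 8.72 (9.63) to 10.74 in D06 mice. BPR21 mice ran from 6.97 (8.94) to 9.21, and mice 11 and 7 were far below the others (6.97 and 7.53, against 8.76 or more). Group ranges overlapped for all 5 genes in every comparison made.

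**Figure D2:**
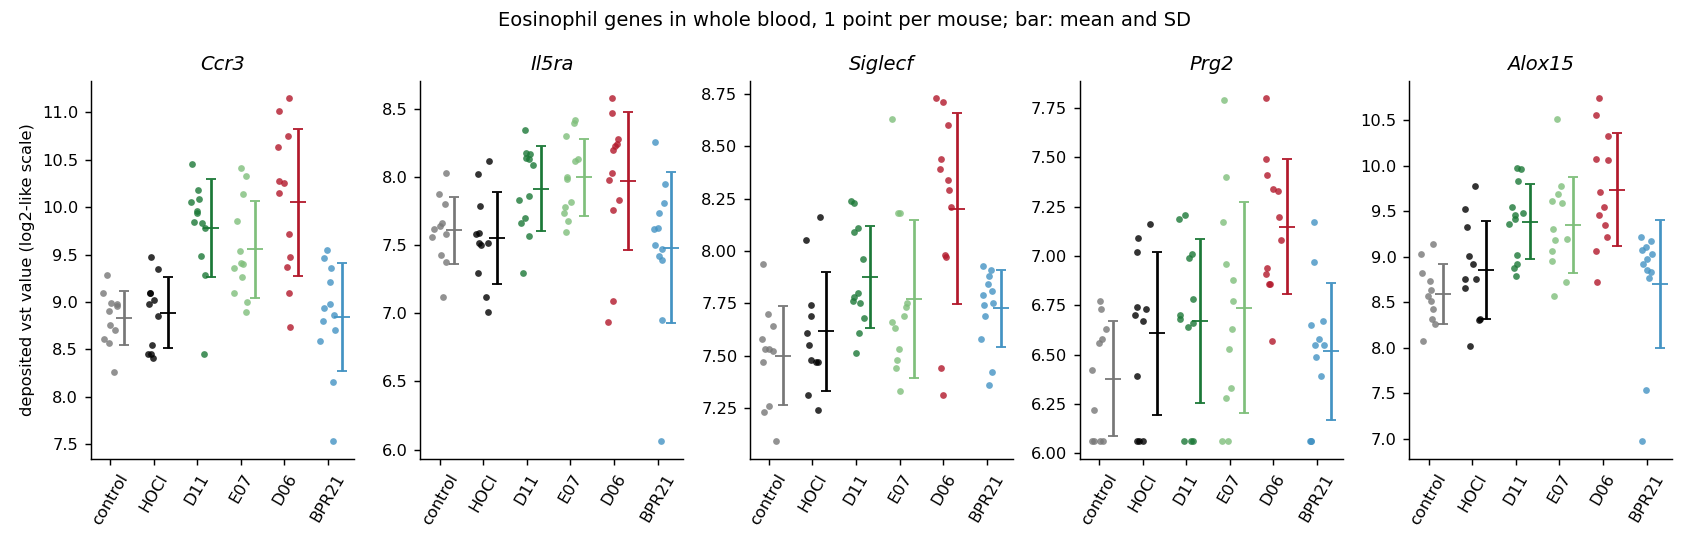
Deposited vst value (log2-like scale) of 5 eosinophil genes in each mouse, by group; the bar beside the points gives the mean and SD. D06 mice reached the highest values of Ccr3 (11.15), Siglecf (8.73), Il5ra (8.58), Prg2 (7.80) and Alox15 (10.74), and low BPR21 mice stand out for Ccr3, Il5ra and Alox15.

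To ask whether the 5 genes differed where the choice of genes did not rest on the contrast, D06, BPR21, HOCl and control mice were compared with limma on the vst values, with an FDR of at most 0.05 over all 10508 genes and a fold-change of at least 1.3 (a call). The contrasts with HOCl or control share those mice with the ones that led to the choice, and D06 against BPR21 shares none.

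D06 compared to control mice gave the clearest differences. Ccr3 was higher by 1.23 ± 0.22 (log2 on the vst scale, SE, n = 12 and 11, limma FDR = 0.00118), Alox15 by 1.15 ± 0.19 (FDR = 0.000998), Prg2 by 0.77 ± 0.13 (FDR = 0.000998) and Siglecf by 0.70 ± 0.14 (FDR = 0.00225). Il5ra was 0.36 ± 0.16 above control and was not called (limma FDR = 0.153). On counts, edgeR gave log2 fold changes of 2.87 for Prg2, 1.65 for Ccr3, 1.53 for Alox15, 1.32 for Siglecf and 0.75 for Il5ra, so by counts the largest change was that of Prg2. Thus 4 of the 5 genes were called higher, while 7.27% of all genes tested were called higher in this comparison. Over all genes the median difference was -0.033, and over the 5 genes it was 0.77. Prg2 and Siglecf lost their calls with a red cell score as covariate (limma FDR = 0.053 and 0.203), in a fit that left 3 calls among all genes, while their differences were 0.87 and 0.78 in it. The 19 red cell precursor genes were themselves all called higher in D06 than in control mice (median 1.19). Leaving out each mouse in turn kept the 4 calls (23 refits), beside 676 to 905 of 10508 genes called higher.

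D06 compared to HOCl mice, the comparison with mice of the same model, gave smaller calls. Ccr3 rose by 1.17 ± 0.23 (limma FDR = 0.0390, n = 12 and 11), in a comparison with 0.0761% of all genes called higher. The other 4 genes were above HOCl without a call: Alox15 by 0.89 ± 0.22 (FDR = 0.0865), Siglecf by 0.59 ± 0.15 (FDR = 0.0960), Prg2 by 0.54 ± 0.15 (FDR = 0.123) and Il5ra by 0.42 ± 0.17 (FDR = 0.294), all by limma. By edgeR on counts, the log2 fold changes were 1.62 for Ccr3, 1.13 for Alox15, 1.17 for Siglecf, 1.51 for Prg2 and 0.77 for Il5ra. All 5 had an unadjusted p under 0.05, as had 12.7% of all genes. Between 10 and 11 of the 12 D06 mice lay above the HOCl median for each gene. The call of Ccr3 was not stable: without single mice its FDR ran from 0.011 to 0.0844 and passed 0.05 without HOCl mouse 1, 2, 3, 5, 6 or 12 or without D06 mouse 1, 2, 6, 7, 9 or 10, while its difference stayed between 1.07 and 1.29. With total-count scaling the difference was 1.28 with an FDR of 0.267 (limma).

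D06 compared to BPR21 mice, with no mice shared with the choice of genes, gave 0 calls among the 5 genes in limma, with 0.0476% of all genes called higher. Ccr3 was higher by 1.21 ± 0.25 (limma FDR = 0.0610, n = 12 and 12), Prg2 by 0.63 ± 0.13 (FDR = 0.0610), Alox15 by 1.03 ± 0.24 (FDR = 0.105), Il5ra by 0.48 (FDR = 0.468) and Siglecf by 0.47 (FDR = 0.266). All 5 had an unadjusted p under 0.05, as had 8.94% of all genes, and edgeR and DESeq2 on counts called 1 and 4 of them (0.0571% and 0.257% of all genes). The edgeR log2 fold changes were 2.03 for Prg2, 1.54 for Ccr3, 1.27 for Alox15, 0.90 for Siglecf and 0.83 for Il5ra. Without BPR21 mice 7 and 11, chosen after the data were seen, the differences of Ccr3, Alox15, Prg2 and Siglecf were 1.01, 0.74, 0.58 and 0.49, that of Il5ra was 0.29 with an unadjusted p of 0.0916 (limma), and again 0 of the 5 were called. At least 10 of the 12 D06 mice lay above the BPR21 median for every one of the 5 genes.

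In BPR21 compared to HOCl mice, no difference exceeded 0.15 in size on the vst scale (0 calls in limma, 0 genes at an unadjusted p under 0.05, and 0 calls in edgeR and DESeq2), in a comparison with 0.238% of all genes called higher by limma, 0.476% by edgeR and 1.1% by DESeq2. Ccr3 differed by -0.04 ± 0.20 and Alox15 by -0.15 ± 0.26 (SE of the difference of means), and without mice 7 and 11 they differed by 0.16 and 0.14, Il5ra by 0.13, Siglecf by 0.10 and Prg2 by -0.04. By edgeR on counts, Prg2 differed by -0.53 and Siglecf by 0.27. DESeq2 gave no FDR for Prg2 here (unadjusted p = 0.459). BPR21 compared to control mice also gave 0 calls among the 5 genes (1 of them at an unadjusted p under 0.05 in limma, edgeR and DESeq2), with 0.152% of all genes called higher by limma, 1.11% by edgeR and 3.74% by DESeq2. Without mice 7 and 11, Alox15 moved from 0.11 to 0.40 above control (unadjusted p = 0.00131, limma FDR = 0.103), Ccr3 from 0.02 to 0.22, Il5ra from -0.13 to 0.07, Prg2 from 0.14 to 0.19 and Siglecf from 0.23 to 0.22. HOCl compared to control mice gave 0 calls with any of these tools and 0 genes at an unadjusted p under 0.05, although 4.79% of all genes were called higher by limma, 4.6% by edgeR and 5.71% by DESeq2. On the vst scale the largest difference was that of Alox15, 0.26 ± 0.19, and on counts that of Prg2, 1.37 by edgeR and 1.42 by DESeq2. With total-count scaling, where the median of all genes was -0.47, Ccr3, Siglecf and Alox15 were below control by -0.40, -0.21 and -0.14, so their sign in this comparison depends on the scaling. Il5ra, at -0.06 on the vst scale, was then at -0.51 (unadjusted p = 0.0438, limma FDR = 0.0727). With a red cell score as covariate, Alox15 was 0.58 above control (unadjusted p = 0.0155, limma FDR = 0.322) and Siglecf 0.32 (p = 0.0364, FDR = 0.36). Ccr3 was then 0.28 above control (p = 0.122). In that fit 12.9% of all genes had an unadjusted p under 0.05.

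D11 and E07 mice are described against the same references. Ccr3 was 0.90 ± 0.19 (SE) above HOCl in D11 and 0.67 ± 0.19 above HOCl in E07 mice, and 10 D11 and 5 E07 mice lay above every HOCl mouse. Alox15 was 0.53 ± 0.20 and 0.50 ± 0.22 above HOCl in these groups. Il5ra was 0.36 ± 0.14 and 0.44 ± 0.13 above HOCl, and in E07 mice all 12 values lay above the HOCl median. Siglecf was 0.26 ± 0.11 and 0.16 ± 0.14 above HOCl, and Prg2 0.06 ± 0.17 and 0.13 ± 0.20. Against control, Ccr3 was higher by 0.95 ± 0.17 in D11 and by 0.73 ± 0.17 in E07 mice, with 11 and 8 of 12 mice above every control mouse. E07 minus D11 ran from -0.22 ± 0.21 for Ccr3 to 0.08 ± 0.12 for Il5ra. With total-count scaling, where the median of all genes was 0.493 in E07 against HOCl, the E07 differences from HOCl were larger (Ccr3 1.31, Il5ra 1.19, Alox15 1.11). Prg2 (0.44) lay below that median. For E07 minus D11 the median was then 0.393. Ccr3 (0.13), Siglecf (0.16), Prg2 (0.22) and Alox15 (0.34) lay below it, and Il5ra (0.5) above. The medians were 0.094 in D11 against HOCl, -0.365 in D11 against control and 0.023 in E07 against control, with all 5 genes above them.

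**Figure D3:**
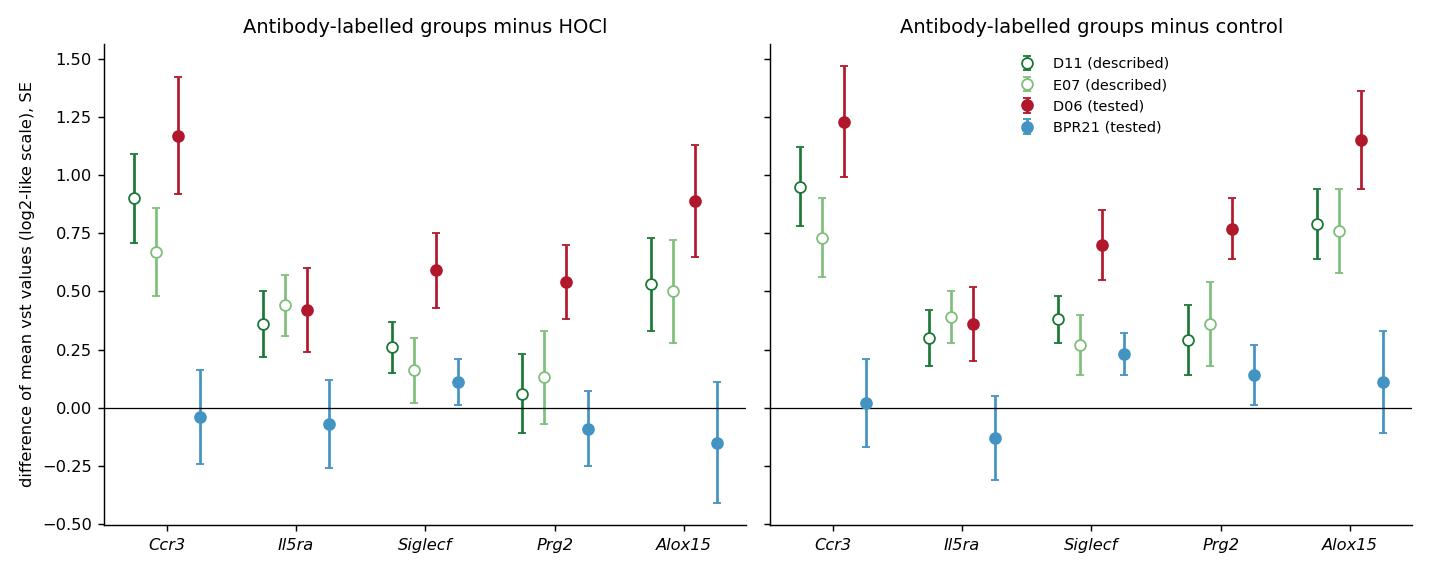
Difference of mean vst values (log2-like scale) of D11, E07, D06 and BPR21 mice from HOCl (left) and control mice (right); bars are the standard error of the difference of means. Filled points were tested, and open points are described only because the genes were chosen with those results known. D06 lay highest for Ccr3, Siglecf, Prg2 and Alox15, and BPR21 stayed near 0 against HOCl.

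Epx was absent from the table of normalized values and too rare for the count filter of 10 counts in 11 mice. It had 57 reads in all: 3 in control mouse 9, 8 in D11 mouse 7, 8 in D06 mouse 6, and 1, 9, 16, 5 and 7 in E07 mice 1, 2, 4, 10 and 11. None of the 12 HOCl and 12 BPR21 mice had a read. Only edgeR without a filter on low counts could include Epx, and it was called in 0 of 6 comparisons. Its lowest FDR by that fit was 0.0712 in D06 against HOCl (unadjusted p = 0.00357) and 0.102 in D06 against BPR21 mice (unadjusted p = 0.00391), both of which rest on D06 mouse 6, where 0.044% and 0.0135% of all genes were called higher. A count of 0 allows up to 3 counts, or 0.188 to 0.251 CPM at these depths, for counting error only, so a level below that was not detectable in the other 63 mice. Of the 5 E07 mice with Epx reads, mouse 11 had 140 Prg2 reads, the most of any mouse of its group, and mouse 2 had 2.

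Within groups, Ccr3, Alox15, Il5ra and Siglecf moved together from mouse to mouse, and Prg2 less so. Taking each of 70 mice as its deviation from its group mean, Ccr3 correlated with Alox15 (Pearson r = 0.75), Il5ra (0.70), Siglecf (0.66) and Prg2 (0.42), where 99% of all genes had an r with Ccr3 under 0.385. The r of Alox15 was 0.62 with Il5ra and 0.57 with Siglecf, and that of Il5ra with Siglecf was 0.44. Prg2 had an r of 0.30 with Alox15, 0.29 with Il5ra and 0.23 with Siglecf, below the 0.355 under which 99% of all genes lay for Prg2. By group the r of Ccr3 with Alox15 ran from 0.37 in D11 to 0.89 in E07 mice, and with Siglecf from 0.18 in BPR21 to 0.90 in E07 mice. The r with Prg2 ran from -0.04 in HOCl to 0.73 in E07 mice. The mice share libraries and scaling across genes: Ccr3 had an r of 0.34 with the size factor, 0.10 with the total count and -0.27 with the red cell list.

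**Figure D4:**
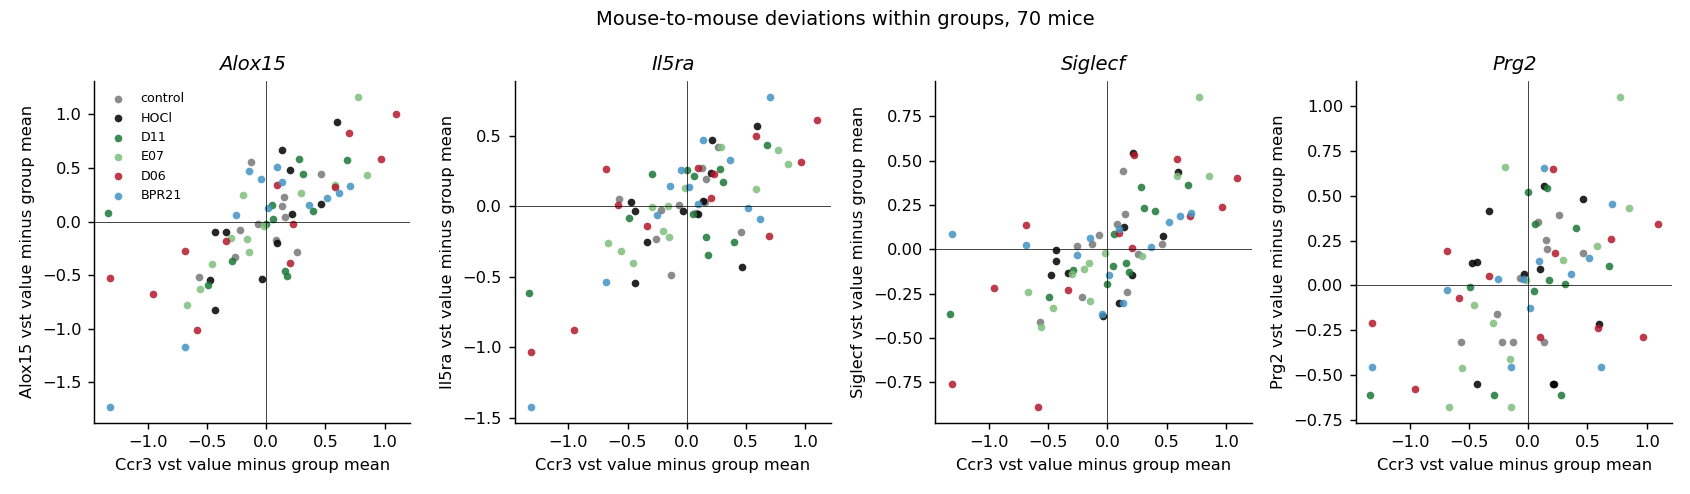
Deviation of each mouse from its group mean on the vst scale, Ccr3 on the horizontal axis and Alox15, Il5ra, Siglecf or Prg2 on the vertical axis, coloured by group (70 mice). The points rise together most for Alox15 (r = 0.75) and least for Prg2 (r = 0.42).

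The 10 genes most like Ccr3 by this measure were Inpp5j (r = 0.75), Alox15, P2ry14 (0.71), Il5ra, Siglecf, Adss (0.65), Adgre4 (0.64), Camk1 (0.64), Ear6 (0.61) and Adgre1 (0.61). Ear6, an eosinophil ribonuclease, was in the top 10 of all 5 genes, Inpp5j, an inositol phosphatase, in that of 4, and Adora3, an adenosine receptor, in those of Siglecf and Il5ra. Prg2 was most like the granule genes Ear1 (r = 0.60) and Ear6 (0.58), with Prg3 at 0.47. Of the 9 such genes that are not among the 6, Camk1, a calcium-dependent kinase, was called higher in D06 than in HOCl mice (0.77 ± 0.14, limma FDR = 0.0215), BPR21 mice (0.69 ± 0.12, FDR = 0.0220) and control mice (0.97 ± 0.12, FDR = 0.000109). P2ry14, a receptor for UDP-sugars, was called against HOCl (0.91 ± 0.19, FDR = 0.0411) and control mice (0.68 ± 0.17, FDR = 0.00788). Adora3 was called against control mice (0.60 ± 0.13, limma FDR = 0.00404), as were Ear6 and Adgre1 (values below). In all, 5 of the 9 genes were called higher against control and 2 against HOCl mice, beside 7.27% and 0.0761% of all genes. Against BPR21 mice 1 was called, beside 0.0476% of all genes. The 9 genes were picked by likeness in these same mice.

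A wider list of 33 genes of eosinophil biology, also chosen with earlier results known, held 26 measured genes. In D06 against control mice 18 of them were above and 8 below (median 0.16). Of these, 9 were called higher and 0 lower, beside 7.27% of all genes called higher. Against HOCl mice 15 were above and 11 below (median 0.14), and 1 was called higher (P2ry14), beside 0.0761% of all genes. Among ligands, Il5 had at most 1 read per mouse outside D06 mice, where the highest count was 14, and Il3 had none. Among receptors and surface genes, Adgre1, the F4/80 antigen, was 0.66 ± 0.18 above control in D06 mice (limma FDR = 0.0139), Il1rl1, the interleukin-33 receptor, 0.44 ± 0.14 (FDR = 0.0349) and Cd9 0.59 ± 0.13 (FDR = 0.0033). The shared beta chain Csf2rb, which signals for Il5ra, differed by 0.01 ± 0.17 from control and by -0.35 ± 0.12 from HOCl (limma FDR = 0.215). Of 4 granule genes, Ear6 (0.92 ± 0.19, limma FDR = 0.00251) and Ear1 (0.72 ± 0.21, FDR = 0.0266) were called against control, and Prg3 was 0.39 ± 0.14 above it (FDR = 0.0815). Ear2 went the other way, with a difference of -0.22 ± 0.17 from control (limma FDR = 0.495). Alox5ap, which presents arachidonic acid to 5-lipoxygenase, was called (0.46 ± 0.10, limma FDR = 0.00502). Of 8 transcription factors, Cebpe, which drives granule genes (0.51 ± 0.12, limma FDR = 0.00728), and Gata1 (0.46 ± 0.13, FDR = 0.0177) were called, and Gata2 was 0.44 ± 0.15 above control (FDR = 0.0605). Gata1 and Cd9 are also made by platelets and their precursors, and 7 of 9 measured platelet markers were called higher in D06 than in control mice, beside 7.27% of all genes. All 19 red cell precursor genes were also called higher in D06 than in control mice (median 1.19). The part of platelets and of red cell precursors in these values was not tested.

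**Figure D5:**
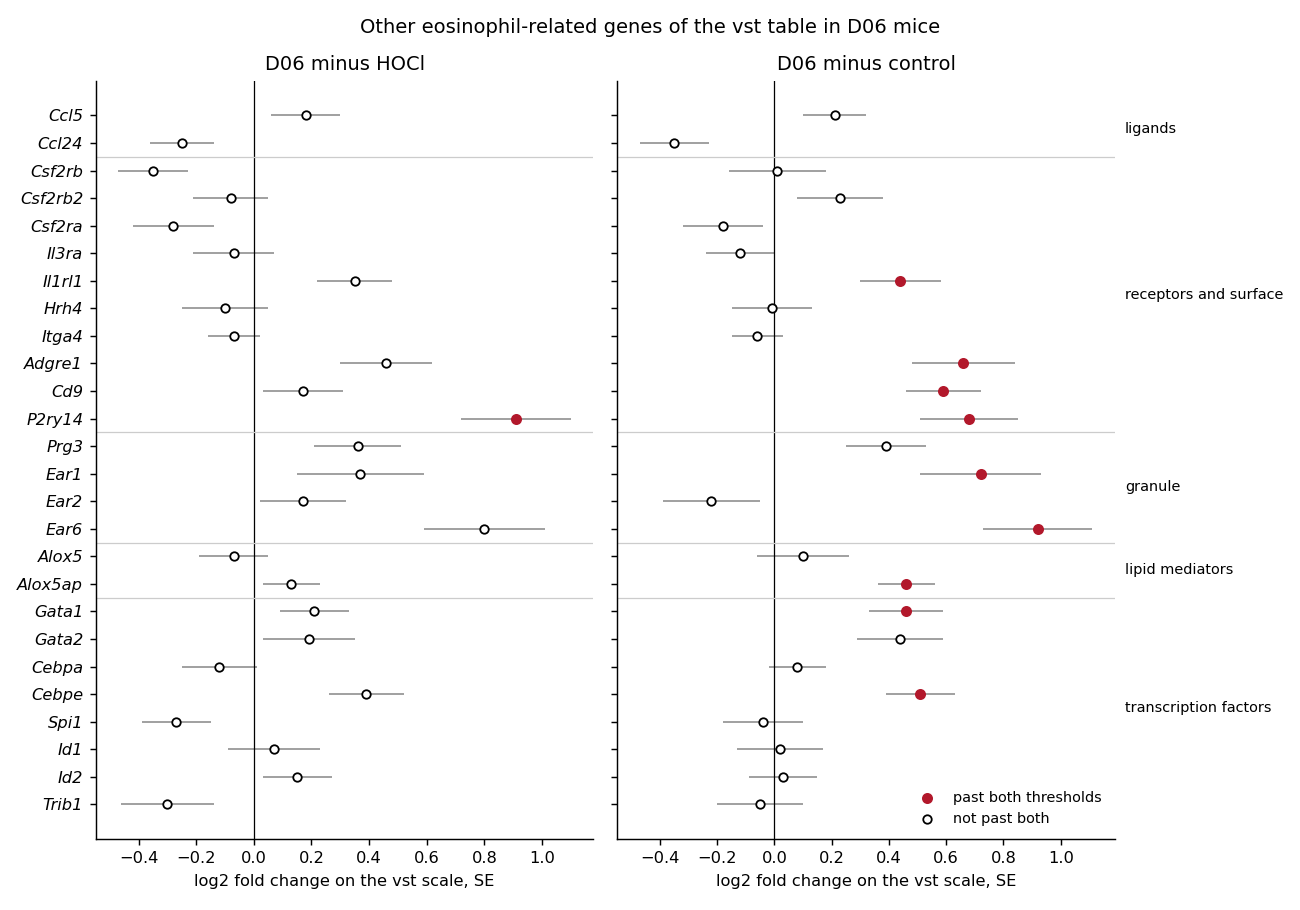
Log2 fold change on the vst scale with its standard error (limma) of 26 further eosinophil-related genes in D06 mice against HOCl (left) and control mice (right), grouped by role; filled points passed both thresholds. P2ry14 passed in both panels, and 9 genes passed against control.

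Markers of cells that share some of these genes were read in the same way. Basophils also carry Ccr3. All 8 basophil markers were measured, 0 were called in D06 against HOCl mice (6 above, median 0.24), beside 0.0761% of all genes. Against control mice all 8 were above (median 0.38) and 1 was called, Mcpt8 (0.75 ± 0.19, limma FDR = 0.00809), beside 7.27% of all genes. Their summed level ran from 34.5 to 151 CPM in D06, 37.6 to 169 CPM in HOCl, 54.3 to 208 CPM in control and 54 to 429 CPM in BPR21 mice. Hdc alone reached 5793 counts in a BPR21 mouse. Within groups, the mean deviation of the basophil list had an r of -0.01 with Ccr3, that of 4 granule genes 0.62, that of the receptor and surface list 0.27 and that of the transcription factors -0.07. For marker lists of other blood cells the r with Ccr3 ran from -0.29 for platelets to 0.31 for B cells. That of Il5ra ran from -0.31 for neutrophils to 0.34 for B cells, and that of Alox15 from -0.29 for neutrophils to 0.31 for B cells. With the red cell list it was -0.16 for Il5ra and -0.09 for Alox15. The part of these cells was not tested. Tissue macrophages can carry Siglecf, Adgre1 and Alox15. None of 6 macrophage markers passed the authors' filter on low genes, and their sum did not pass 6.71 CPM in any mouse.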

How the data were processed

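Stranded libraries of whole-blood RNA from 71 mice, selected for poly A and depleted of globin transcripts, were sequenced to at least 20 M read pairs. The authors trimmed adaptors with Cutadapt, aligned reads to mm39 with STAR and counted them with featureCounts. They deposited these raw counts (55416 genes) and, on a log2-like scale, vst values made with DESeq2 for 10508 protein-coding genes that passed their filter on low expression. Versions of Cutadapt, STAR and featureCounts for the mouse data are not given in the sources used here. The vst table leaves out HOCl mouse 8. The members and all gene lists were chosen with earlier results of these data known.

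Groups were compared with limma 3.58.1 (R 4.3.3), two-sided, in fits of the 2 groups compared, with calls at 1.3-fold or more and a Benjamini-Hochberg FDR over all genes of 0.05 or less. The counts of 10501 vst genes were compared with edgeR 4.0.16 (quasi-likelihood, TMM) and DESeq2 1.42.0. Total-count scaling used limma on log2(CPM + 1). Further alternatives were all 6 groups in 1 fit, other low-count filters (none, or 10 counts in 11 mice), a red cell score as covariate, the FDR alone, the mouse number as a block, and each mouse left out. Likeness was Pearson's r of deviations from group means. Named genes were the 6 members, listed genes past both thresholds or close in role, and genes in the top 10 for Ccr3 or for at least 2 members. The tests were tried on simulated D06 against HOCl counts of 10501 genes with 200 changed. Of these 200, limma recovered 90%, edgeR 91.5% and DESeq2 93%, with 8, 5 and 16 false calls. The simulation gave all genes the same spread beyond counting error. Changed genes all had the same size of change, up or down, and were drawn from genes above a minimum mean count. Recovery at the counts and spread of the 6 members was not tested. Gene positions were read from GENCODE vM39 (GRCm39), and exon lengths are unions over transcripts. Computations other than the fits used Python 3.11.15, numpy 2.4.6 and pandas 2.3.3. The depth, 11932855 to 15948972 counts per mouse, limits precision for Prg2 and Epx, which have few counts. Each sample is a separate mouse, so p-values set group differences against the spread between mice within groups. They cannot tell group from cage.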

Additional observations from a re-analysis of the deposited data

Results flagged for a closer look

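Epx, the eosinophil peroxidase, lies outside the table of normalized values and entered no comparison of those values. Its highest count in a control mouse was 3. It reached 8 in D11, 16 in E07 and 8 in D06 mice, above that control count, and 0 in every HOCl and BPR21 mouse. Only 1 mouse had 10 or more Epx reads, and edgeR without a filter on low counts, the one fit that included Epx, called it in 0 of 6 comparisons (lowest FDR = 0.0712, D06 against HOCl).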

How the results depend on the processing

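Of the counts of called genes, those of HOCl against control, BPR21 against HOCl and BPR21 against control were 0 under every alternative, single mice left out included. The 4 calls in D06 against control remained under every alternative except the red cell score as covariate, which left 2 (Ccr3 and Alox15) while the differences of Prg2 and Siglecf were 0.87 and 0.78 against 0.77 and 0.70, and leaving out single mice gave 4 to 5 calls, the fifth being Il5ra without D06 mouse 11 (limma FDR = 0.0314, 0.0314 to 0.26 over the mice left out). In D06 against HOCl the 1 call became 3 with all 6 groups in 1 fit and with edgeR (Alox15, Ccr3 and Siglecf), 2 with DESeq2, with edgeR without a filter and with the red cell score (Alox15 and Ccr3), and 0 with total-count scaling. DESeq2 gave no FDR there for Siglecf (unadjusted p = 1.48e-05), Prg2 (p = 0.00379) and Il5ra (p = 0.00977), so it could not call them. Leaving out single mice gave 0 to 2 calls, Alox15 joining without D06 mouse 5. In D06 against BPR21 the 0 calls became 3 with all 6 groups in 1 fit (Alox15, Ccr3 and Prg2), 4 with DESeq2 (Siglecf too), 1 with edgeR on the vst genes or without a filter (Ccr3; 0 with the filter of 10 counts in 11 mice), and 2 with the red cell score (Ccr3 and Prg2). Leaving out single mice gave 0 to 2 calls: Ccr3 and Prg2 without D06 mouse 4 or BPR21 mouse 2, Ccr3 without D06 mouse 5 or 11 or BPR21 mouse 8, and Prg2 without BPR21 mouse 5. The share of all genes called higher also moved, from 0.0761% to 0.371% (6 groups), 0.257% (edgeR) and 0.762% (DESeq2) in D06 against HOCl. There it was 0.044% with edgeR without a filter and 0.409% with the red cell score, and total-count scaling called 0 of all genes. In D06 against BPR21 it moved from 0.0476% to 0.257% (6 groups), 0.257% (DESeq2) and 0.133% (red cell score). With edgeR it was 0.0571% on the vst genes, 0.0135% without a filter and 0.0197% with the filter. The causes were not tested.

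Whether the mouse numbers of the labels pair the groups was not settled. Over the 6 comparisons the mean correlation of deviations of same-numbered mice was 0.00041 to 0.0774, with at most 4 pairs over 0.1. For mice with other numbers it was -0.005 to 0.00136. A replicate block for the mouse number gave 0 calls in D06 against HOCl, where it called 0 of all genes. In D06 against BPR21 it gave 1, Ccr3, beside 0.019% of all genes called higher, and the other counts of members did not change. Among all genes, the block moved the calls from 521 to 85 in HOCl against control and from 53 to 534 in BPR21 against control.

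Signs turned for genes without a call. With total-count scaling, Ccr3, Siglecf and Alox15 were at -0.40, -0.21 and -0.14 in HOCl against control, and Ccr3 and Alox15 at -0.39 and -0.29 in BPR21 against control. In BPR21 against HOCl, Ccr3 was at 0.08 with edgeR, 0.07 with DESeq2 and with edgeR under either other filter, and 0.00 with total-count scaling. Without BPR21 mice 7 and 11, an alternative chosen after seeing the data, Ccr3, Il5ra and Alox15 were at 0.16, 0.13 and 0.14 against HOCl and Il5ra at 0.07 against control. Leaving out single mice, Ccr3 ran from -0.10 to 0.08 and Il5ra from -0.14 to 0.06 in BPR21 against HOCl, Alox15 from -0.23 to 0.01. In BPR21 against control, Ccr3 ran from -0.05 to 0.14 and Il5ra from -0.20 to 0.00, and in HOCl against control Ccr3 ran from 0.00 to 0.11. Of 25 D11 and E07 differences, 22 were above 0, and 25 with total-count scaling, which shifts all-gene medians. Few counts limit Prg2 and Epx.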
